A study of Homo sapiens with 18 samples.

Results

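In PANC1 cells, the transcriptome after siRNA against KMT2C was set against that after siRNA against KMT2D, with 5 of the 18 libraries of the series: 3 transfected with KMT2C siRNA1, siRNA2 and siRNA3, and 2 transfected with KMT2D siRNA1 and siRNA2. The libraries were chosen by their titles alone. PANC1 is an established human pancreatic ductal adenocarcinoma line, and the study treated it alongside the pancreatic lines COLO357 and SUIT2 with the same set of siRNAs to ask what loss of either gene does to gene expression. Per the labels, all cells were unedited lines transfected for 48 h, total RNA was depleted of ribosomal RNA, and 100 nt paired ends were read. Within PANC1 the groups were KMT2C siRNA (3 libraries), KMT2D siRNA (2 libraries) and control siRNA (1 library). The lone control library is given beside the others for direction and was not tested. Each library of a target received a different siRNA. The labels do not state whether cultures were separate. The p-values therefore reflect only how far siRNAs of 1 target differ, which may be partly technical. Transient siRNA lowers an mRNA without removing it, so neither group is a model of complete loss.

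KMT2C and KMT2D encode closely related histone H3 lysine methyltransferases. Each is the catalytic subunit of a COMPASS-like complex that places monomethyl marks at enhancers, and both share the core subunits WDR5, RBBP5, ASH2L and DPY30. The 2 enzymes have partly overlapping roles, and both genes are recurrently mutated in pancreatic cancer. A direct comparison of the 2 siRNA groups describes where they differ and leaves out what they share. Whether a difference comes from the target or from particular siRNAs was not tested.

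The PANC1 libraries held 17974599 to 32115894 gene counts, the lowest in KMT2C siRNA2 and the highest in the control. Levels are given as CPM, the gene count scaled to the library total with TMM factors over the 6 PANC1 libraries. Epithelial and ductal markers were present, with KRT8 at 310 to 505 CPM and KRT19 at 205 to 474 CPM. The mesenchymal filament gene VIM lay at 1269 to 2423 CPM, and CDKN2A, which is deleted in PANC1, at 0 to 0.0955 CPM. The fibroblast markers LUM, DCN and POSTN, the endothelial marker PECAM1 and the lymphocyte markers CD2, CD3D and MS4A1 were at 0 in every library. The 12 fibroblast markers summed to 5.21 to 15.4 CPM with KMT2C siRNA, to 8.41 and 9.9 CPM with KMT2D siRNA and to 7.35 CPM in the control, of which THY1 gave the largest share. The 14 leukocyte markers summed to 2.33 to 3.69 CPM with KMT2C siRNA and to 2.21 and 2.3 CPM with KMT2D siRNA. The 12 endothelial markers summed to 9.02 to 12.3 CPM with KMT2C siRNA and to 10.7 and 11.7 CPM with KMT2D siRNA, mostly EGFL7. None of the 8 tested members of these 3 lists separated the targets. All 13 mitochondrially encoded mRNAs were listed at 0 in every library, and so were not counted in these tables.

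The targeted genes went in the direction of their labels except in 1 library. KMT2C (ENSG00000055609) lay at 31.1, 57.8 and 35.8 CPM with KMT2C siRNA1, siRNA2 and siRNA3, at 68.8 and 134 CPM with KMT2D siRNA1 and siRNA2, and at 49.3 CPM in the control. All 3 KMT2C libraries were thus below both KMT2D libraries, but the library labelled KMT2C siRNA2 stood at 117% of the control, against 63.2% and 72.6% for siRNA1 and siRNA3. With KMT2D siRNA2, KMT2C mRNA was at 272% of the control. KMT2D (ENSG00000167548) lay at 30.6, 99.6 and 41.4 CPM with the KMT2C siRNAs, at 21.3 and 22.3 CPM with the KMT2D siRNAs and at 26.4 CPM in the control. Its KMT2D siRNA libraries were at 80.6% and 84.3% of the control and agreed closely, while the library labelled KMT2C siRNA2 was at 377%. Neither gene passed edgeR's quasi-likelihood test. The log2 fold change of KMT2C siRNA over KMT2D siRNA was -1.29 for KMT2C (SE 0.352, adjusted p = 0.441) and 1.38 for KMT2D (SE 0.473, adjusted p = 0.538). Without the KMT2C siRNA2 library the values were -1.60 and 0.72, so that library alone raised the difference in KMT2D mRNA by more than 1.5 times on the fold scale.

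**Figure D1:**
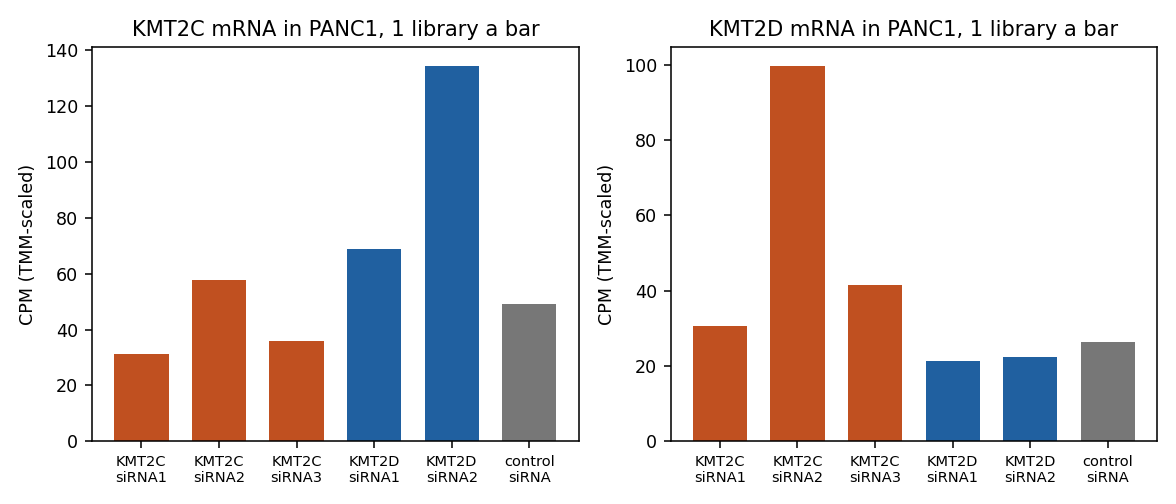
KMT2C mRNA (left) and KMT2D mRNA (right) in PANC1, in TMM-scaled CPM, 1 bar for each library, in the order KMT2C siRNAs, KMT2D siRNAs, control. Every KMT2C siRNA library lies below both KMT2D siRNA libraries for KMT2C, and the library labelled KMT2C siRNA2 carries the most KMT2D mRNA (99.6 CPM).

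No gene passed an adjusted p under 0.05 between the KMT2C and KMT2D siRNA libraries of PANC1. Of 15978 genes tested, 0 were called (0%), the smallest adjusted p was 0.266, and 1275 genes had an unadjusted p under 0.05, 691 higher with KMT2C siRNA (4.32%) and 584 lower (3.66%). The count at an unadjusted p under 0.05 was 798 without KMT2C siRNA1, 845 without KMT2C siRNA3, 2029 without KMT2D siRNA1 and 1937 without KMT2D siRNA2. limma-voom also called 0, with 1346 genes at an unadjusted p under 0.05, whereas the DESeq2 Wald test called 122 (0.764%), 90 higher and 32 lower. Without the filter on low counts the quasi-likelihood test called 251, KMT2C and KMT2D among them. As a description, 2063 genes (12.9%) had all 3 KMT2C libraries above both KMT2D libraries and 2093 (13.1%) had all 3 below. The KMT2D libraries were as far apart as libraries of different targets, and so was KMT2C siRNA2 from each other KMT2C library. Only KMT2C siRNA1 and siRNA3 were closer together. The root mean square log2 difference over genes was 0.423 between KMT2C siRNA1 and siRNA3, 0.634 and 0.574 between siRNA2 and each of these, and 0.681 between the 2 KMT2D libraries. Between a KMT2C and a KMT2D library it was 0.567 to 0.721. The KMT2D libraries were therefore farther from each other than either was from KMT2C siRNA1 or siRNA3, and 2067 genes differed over 2-fold between them. PDIA6, a protein disulfide isomerase, shows this: it lay at 360, 388 and 355 CPM with the KMT2C siRNAs, at 325 and 39.3 CPM with KMT2D siRNA1 and siRNA2, and at 322 CPM in the control. CALM2, a calmodulin gene, had 445, 464 and 416 CPM with the KMT2C siRNAs and 469 and 45.9 CPM with the KMT2D siRNAs. Both were low in KMT2D siRNA2 alone.

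Because the planned rule named no gene, the 12 protein-coding genes with the smallest p in each direction are described, among those of at least 2 CPM with no overlap between the targets. They were chosen after their values were seen, none passed the adjusted threshold, and all 24 were among the DESeq2 calls. Highest in rank was LIN28B (ENSG00000187772), which encodes an RNA-binding protein that blocks maturation of let-7 microRNAs. It lay at 94.1, 71.4 and 69.3 CPM with the KMT2C siRNAs, at 18.2 and 15.5 CPM with the KMT2D siRNAs and at 127 CPM in the control. The control was above all 5 siRNA libraries, so LIN28B was lower with either target than with control siRNA, and much lower with KMT2D siRNA. Its log2 fold change was 2.21 (SE 0.251, adjusted p = 0.266).

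LYPLA1 (ENSG00000120992), a thioesterase that removes palmitate from proteins, had 190.0, 212 and 183 CPM with the KMT2C siRNAs, 69.5 and 60.2 CPM with the KMT2D siRNAs and 202 CPM in the control. The control lay among the KMT2C libraries, and the log2 fold change was 1.58 (SE 0.211, adjusted p = 0.270). Its processed copy LYPLA1P3 followed the same order, with 29.01, 28.6 and 29.6 CPM against 9.87 and 9.13 CPM, and 40.9 CPM in the control. The near-identical pair may share reads and is not evidence of separate genes. GOLGA7 (ENSG00000147533), a partner of a RAS palmitoyltransferase, had 25.6, 31.8 and 27.4 CPM with the KMT2C siRNAs, 5.97 and 11.4 CPM with the KMT2D siRNAs and 26.4 CPM in the control (log2 fold change 1.70, SE 0.317, adjusted p = 0.390).

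PIK3CB (ENSG00000051382) encodes p110-beta, a catalytic subunit of PI3K, and had 119.8, 115.3 and 117.1 CPM with the KMT2C siRNAs, 32.2 and 48.0 CPM with the KMT2D siRNAs and 94.5 CPM in the control. The KMT2C libraries were almost level with each other and the control lay between the groups (log2 fold change 1.55, SE 0.241, adjusted p = 0.351). MERTK (ENSG00000153208), a receptor tyrosine kinase of the TAM family, had 74.6, 81.4 and 64.6 CPM with the KMT2C siRNAs, 22.8 and 25.0 CPM with the KMT2D siRNAs and 43.2 CPM in the control (log2 fold change 1.61, SE 0.221, adjusted p = 0.270). ADGRG1 (ENSG00000205336), an adhesion G protein-coupled receptor, was low throughout, at 8.82, 12.05 and 6.96 CPM with the KMT2C siRNAs, 1.28 and 2.41 CPM with the KMT2D siRNAs and 3.82 CPM in the control. For MERTK and ADGRG1 the control again stood between the groups.

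CMIP (ENSG00000153815), an adaptor protein gene, differed from the other 11 in where the control lay. It had 41.0, 40.1 and 38.8 CPM with the KMT2C siRNAs and 20.3 and 16.9 CPM with the KMT2D siRNAs, but only 14.4 CPM in the control, below all 5 siRNA libraries (log2 fold change 1.101, SE 0.215, adjusted p = 0.390). The remaining higher genes were the fucosyltransferase FUT4 (1.39), the carnosine N-methyltransferase CARNMT1 (1.31), the lymphocyte adaptor LAT2 (2.28), the ubiquitin domain gene UBTD1 (1.46) and the replication-dependent histone H3C12 (1.30, all as log2 fold changes). Exons of FUT4 overlap those of PIWIL4 and exons of H3C12 those of H2AC17 on the same strand in GENCODE v29, so those pairs may share reads.

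Among the 12 named genes lower with KMT2C than with KMT2D siRNA, LXN (ENSG00000079257), which encodes the carboxypeptidase inhibitor latexin, had the highest level. It had 114, 138 and 130.3 CPM with the KMT2C siRNAs, 283 and 385 CPM with the KMT2D siRNAs and 202 CPM in the control, so the control stood between the groups (log2 fold change -1.40, SE 0.215, adjusted p = 0.351). NKAIN2 (ENSG00000188580), which encodes a protein that binds the sodium pump, had the smallest p in this direction, with 5.31, 4.29 and 5.73 CPM with the KMT2C siRNAs, 17.5 and 16.1 CPM with the KMT2D siRNAs and 3.596 CPM in the control (log2 fold change -1.72, SE 0.242, adjusted p = 0.270). Its family member NKAIN4 followed at 1.16, 1.09 and 1.27 CPM against 3.23 and 3.31 CPM. Both NKAIN genes were thus near the control with KMT2C siRNA and above it with KMT2D siRNA.

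MEF2C (ENSG00000081189), a MADS-box transcription factor, had 4.11, 4.67 and 4.67 CPM with the KMT2C siRNAs, 10.5 and 16.5 CPM with the KMT2D siRNAs and 4.65 CPM in the control (log2 fold change -1.59, SE 0.274, adjusted p = 0.390). ID3 (ENSG00000117318), an inhibitor of basic helix-loop-helix factors, had 8.02, 7.98 and 7.45 CPM with the KMT2C siRNAs, 16.4 and 18.4 CPM with the KMT2D siRNAs and 7.48 CPM in the control. In MEF2C and ID3 the control was within the KMT2C libraries. The related inhibitor ID2 was at 0.838, 1.30 and 0.859 CPM against 2.92 and 6.34 CPM, with 1.78 CPM in the control, above all 3 KMT2C libraries. Its log2 fold change was -2.23, and -1.56 without KMT2D siRNA2. TCF4, a basic helix-loop-helix E protein, was at 1.56, 0.760 and 1.56 CPM against 5.18 and 4.05 CPM, with 2.48 CPM in the control, nearer the KMT2D libraries. The other lower genes were the p53-inducible oxidoreductase TP53I3 (log2 fold change -1.11), the refilin RFLNA (-1.45), the tubulin TUBB2A (-1.17) and the polarity gene PARD3B (-1.35). RFLNA exons overlap those of ZNF664 on the same strand. The fibulin gene EFEMP1 had 1.80, 1.47 and 2.82 CPM with the KMT2C siRNAs, 5.71 and 14.8 CPM with the KMT2D siRNAs and 5.98 CPM in the control. Its log2 fold change of -2.33 leaned on KMT2D siRNA2, without which EFEMP1 was at -1.485.

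**Figure D2:**
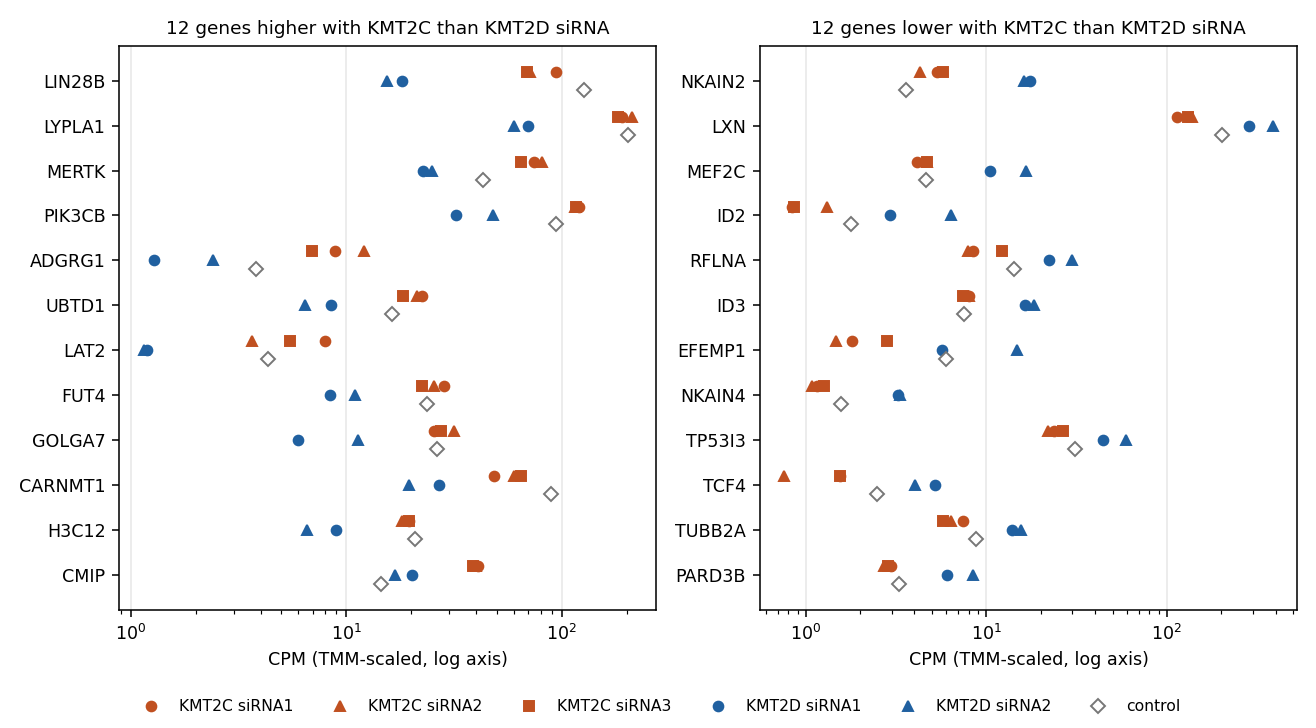
CPM on a log axis of the 12 genes higher (left) and the 12 lower (right) with KMT2C than with KMT2D siRNA in PANC1, 1 point for each library, with KMT2C siRNAs in orange, KMT2D siRNAs in blue and the control as an open diamond. The orange and blue points do not overlap for any gene, as the choice of genes required, and the control lies nearer the orange points for 10 of the 12 genes in each panel.

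The control library lay nearer to the KMT2C siRNA mean than to the KMT2D siRNA mean, on the log2 scale, for 10 of the 12 higher and 10 of the 12 lower genes. Over all 4156 genes with no overlap between the targets, the share was 58.9%. Among the 683 higher genes with no overlap and an unadjusted p under 0.05, the control fell within the KMT2C libraries for 212 (31%), between the groups for 217 (31.8%) and beyond the KMT2C libraries for 133 (19.5%). It fell within the KMT2D libraries for 76 (11.1%) and beyond them for 45 (6.59%). For the 561 lower genes the same counts were 191 (34%), 202 (36%), 97 (17.3%), 56 (9.98%) and 15 (2.67%). Over all 2063 higher genes with no overlap, whatever their p, the shares in this order were 31.5%, 18.3%, 20.6%, 16.8% and 12.8%. Over all 2093 lower genes they were 30.8%, 20.2%, 18.5%, 16.3% and 14.2%. The shares within and beyond the KMT2C libraries were thus near those of all genes without overlap. With 1 control library these positions have no replicate check, and the mean of 3 libraries is steadier than that of 2.

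Leaving out the KMT2C siRNA2 library, whose KMT2C mRNA was not below the control, did not yield calls. Of 15672 genes tested, the quasi-likelihood test of edgeR called 0 (0%), the smallest adjusted p was 0.578, and 1173 had an unadjusted p under 0.05. With 1 more library left out, this last count was 308 without KMT2C siRNA1, 667 without KMT2C siRNA3, 3630 without KMT2D siRNA1 and 3479 without KMT2D siRNA2. DESeq2 called 63 and limma-voom 0. The libraries of KMT2C siRNA1 and siRNA3 were above both KMT2D libraries for 3168 genes (20.2%) and below both for 3094 (19.7%). The log2 fold changes without siRNA2 were 2.28 for LIN28B, 1.56 for PIK3CB and -1.45 for LXN, whose direction was fixed by the choice of genes without overlap.

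The KMT2C siRNA2 library was farther from siRNA1 and siRNA3 (root mean square log2 difference 0.634 and 0.574) than these were from each other (0.423). Between siRNA1 and siRNA3, 602 genes differed over 2-fold. Between some pair of the 3 KMT2C libraries 2364 did so, a count that includes those 602. HMOX1 (ENSG00000100292), the heme oxygenase induced by oxidative stress, had 83.1 and 67.7 CPM with KMT2C siRNA1 and siRNA3 but 276 CPM with siRNA2, against 170.3 and 247 CPM with the KMT2D siRNAs and 74.8 CPM in the control. Its log2 fold change was -0.56 with siRNA2 and -1.47 (SE 0.262, adjusted p = 0.578) without it. AMMECR1 (ENSG00000101935) was the converse, at 129.9 and 130.5 CPM with siRNA1 and siRNA3 but 21.3 CPM with siRNA2, against 54.1 and 43.9 CPM with the KMT2D siRNAs and 106 CPM in the control (0.94 with siRNA2, 1.41 without it). TFDP1, the dimerization partner of E2F factors, had 39.9 and 29.4 CPM with siRNA1 and siRNA3, 75.5 CPM with siRNA2, 77.7 and 65.4 CPM with the KMT2D siRNAs and 75.7 CPM in the control. The other genes that separated without siRNA2 at an unadjusted p under 0.05, and did not reach it with siRNA2, included LHFPL2 (log2 fold change without siRNA2 1.103), the Eph receptor EPHB6 (1.06), the ubiquitin ligase RNF182 (0.94), LRRC49 (1.47, and 0.83 when siRNA1 was also left out) and FAM135A (0.79) on the higher side. On the lower side were the protocadherin PCDH18 (-2.39), the galactose mutarotase GALM (-0.99), the immune checkpoint gene VSIR (-1.102) and the transporter ABCA5 (-1.24). These were the smallest p-values of each direction and were chosen after their values were seen. With siRNA2 included, PCDH18 and GALM still had all 3 KMT2C libraries below both KMT2D libraries. Their unadjusted p by the quasi-likelihood test was then 0.0522 and 0.0511.

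Genes picked without siRNA2 were then read in that library. Of the 624 genes higher with siRNA1 and siRNA3 than with KMT2D siRNA at an unadjusted p under 0.05, siRNA2 also lay above both KMT2D libraries for 497 (79.6%). It lay below both for 59 (9.46%) and between them for 68 (10.9%). Of the 549 lower genes, siRNA2 was below both KMT2D libraries for 429 (78.1%). On a scale where 0 is the mean of the KMT2D libraries and 1 the mean of KMT2C siRNA1 and siRNA3, its median position was 0.72. The control, treated in the same way, was on the KMT2C side for 538 of the 624 (86.2%) and 500 of the 549 (91.1%), with a median position of 0.781. All these positions share the KMT2D libraries that helped to pick the genes. The control, with neither gene targeted, also fell mostly on the KMT2C side. How far the choice of genes accounts for this was not tested.

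**Figure D3:**
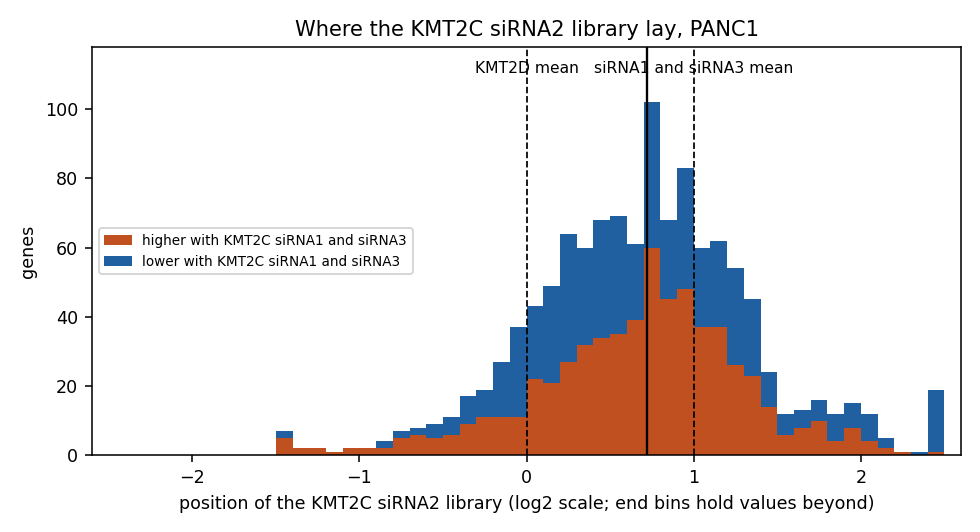
Position of the KMT2C siRNA2 library of PANC1 on the log2 scale (x axis, 0 at the KMT2D mean and 1 at the mean of KMT2C siRNA1 and siRNA3) against the number of genes (y axis), for genes that separated without it at an unadjusted p under 0.05. The solid line is the median, 0.72, and most genes lie right of 0 and many short of 1.

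The same contrast in the 10 siRNA libraries of COLO357 and SUIT2 was measured apart from PANC1, though with the same siRNAs. In a fit with the line as a term, 46 of 18258 genes were called higher with KMT2C siRNA (0.252%) and 21 lower (0.115%). KMT2D itself was called, at a log2 fold change of 1.61 (SE 0.234, adjusted p = 0.0129), and KMT2C was at -0.84 (SE 0.2, adjusted p = 0.0827). Of the 12 higher PANC1 genes, 11 were tested there and all 11 had a positive log2 fold change, and 3 were called: PIK3CB at 1.45 (SE 0.167, adjusted p = 0.0031), CMIP at 1.13 (SE 0.159, adjusted p = 0.00989) and FUT4 at 1.17 (SE 0.226, adjusted p = 0.0437). PIK3CB had 35.3, 44.4 and 47.1 CPM with the KMT2C siRNAs in COLO357, against 18.7 and 16.6 CPM with the KMT2D siRNAs, and 115.8, 90.1 and 111.7 CPM against 30.6 and 35.6 CPM in SUIT2. Of the 12 lower genes, 11 were tested, 9 had a negative value and 0 were called. Low levels limit some of these values. In siRNA libraries, NKAIN2 was at 0 to 0.1865 CPM in COLO357 and 0.612 to 1.165 CPM in SUIT2. ID3, TCF4 and RFLNA were at most 0.265, 0.2271 and 0.1802 CPM in SUIT2. Of the higher genes, MERTK was at most 0.2854 CPM in COLO357.

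Across the wider set, 634 of the 683 higher PANC1 genes were tested in the other lines, and 592 had the same sign. There, 24 were called in the same direction (3.79% of those tested) and 0 in the opposite one. The median log2 fold change of the higher genes was 0.863 in PANC1 and 0.464 in the other lines. Of the 561 lower genes, 495 were tested and 410 had the same sign. In the same direction 11 were called (2.22% of those tested), and 0 in the opposite one. The medians of the lower genes were -0.825 in PANC1 and -0.393 in the other lines. Over all genes of the fit of the other lines, 0.252% were called higher and 0.115% lower. The share of all genes with the same sign in both fits was not counted. The PANC1 medians are raised by the choice of genes there. LIN28B was not among those tested: its level was 0 to 0.256 CPM in COLO357 and 0 to 0.527 CPM in SUIT2.

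**Figure D4:**
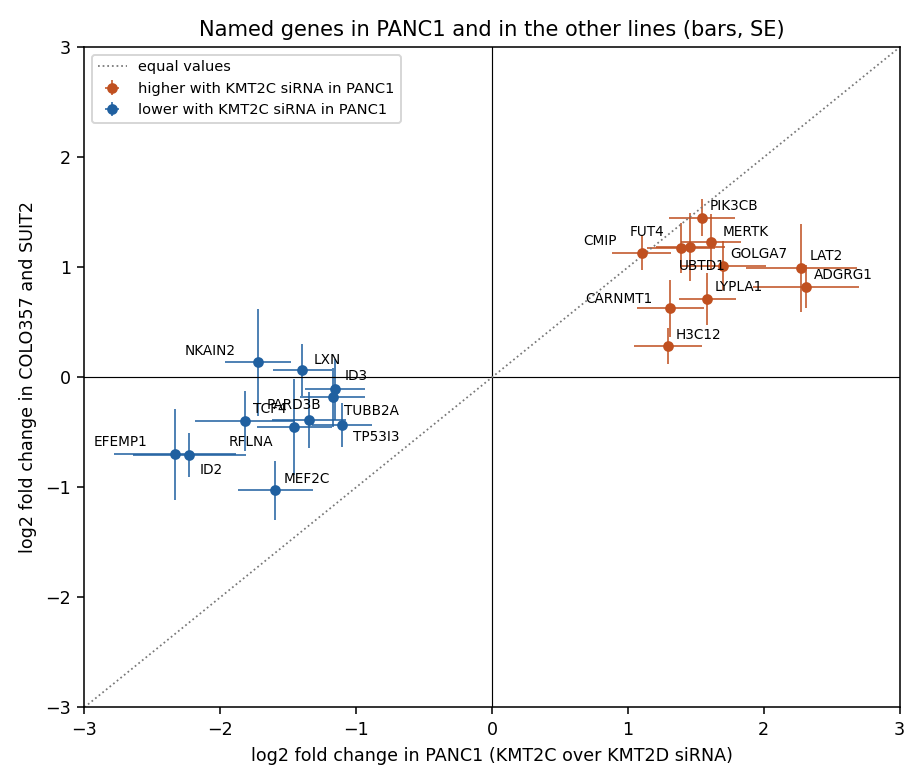
Log2 fold change of KMT2C over KMT2D siRNA in PANC1 (x axis) and in COLO357 and SUIT2 together (y axis) for the 22 named genes tested in both fits, with SE bars. PIK3CB and CMIP lie near the line of equal values, while LXN and NKAIN2 lie near 0 in the other lines. NKAIN2 had at most 1.165 CPM in the siRNA libraries of those lines.

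Where PANC1 differed from the other lines was tested directly, as the contrast in PANC1 minus the mean contrast in COLO357 and SUIT2 in a fit of all 18 libraries. Of 21028 genes, the quasi-likelihood test of edgeR called 0 (0%), and 593 had an unadjusted p under 0.05. The genes with the smallest unadjusted p on the lower side were LXN, the complement protease CFD, the transcription factor NFATC2, the transcription factor MYRF and PRAF2. LXN differed by -1.47 on the log2 scale (SE 0.338), since its log2 fold change was -1.40 in PANC1 and 0.07 (SE 0.235) in the other lines. Its level also differed, at 114 to 385 CPM in the PANC1 siRNA libraries, against 4.88 to 9.42 CPM in COLO357 and 11.2 to 18.8 CPM in SUIT2. MYRF was at -0.33 in PANC1 (SE 0.297), against a called 1.05 (SE 0.21, adjusted p = 0.0471) in the other lines. On the higher side were MREG, THBD, TENM3, OCIAD2 and ADGRG1. OCIAD2 had 40.8, 26.8 and 25.7 CPM with the KMT2C siRNAs of PANC1, 15 and 15.8 CPM with the KMT2D siRNAs and 13.6 CPM in the control (log2 fold change 1.01 in PANC1 and -0.14 in the other lines). THBD and TENM3 were at or below 1.79 CPM in every PANC1 siRNA library.

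The genes that the contrast over all 3 lines had brought forward were read in PANC1 whatever their p. MDC1 (ENSG00000137337) encodes a scaffold that gathers repair factors at DNA breaks, and had 72.8, 35.8 and 74.5 CPM with the KMT2C siRNAs, 32.5 and 16.0 CPM with the KMT2D siRNAs and 43.3 CPM in the control (log2 fold change 1.33, SE 0.412, adjusted p = 0.495). The siRNA2 value of 35.8 CPM was close to KMT2D siRNA1, and without it the log2 fold change of MDC1 was 1.60. Without KMT2D siRNA1 it was 1.93. SCEL and ALDH1A1 were not tested in PANC1, since they had 0, 0 and 1 and 0, 0 and 2 counts with the KMT2C siRNAs, 2 and 0 and 3 and 0 counts with the KMT2D siRNAs, and 1 count each in the control.

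Gene lists are described by how many members had all 3 KMT2C libraries above or below both KMT2D libraries, to be read against 12.9% and 13.1% of all genes, and by the median log2 fold change, which was 0.00 over all genes. No member of any list passed the adjusted threshold. Replication-dependent histones stood highest. These genes make the bulk histones of S phase, and their mRNAs lack poly(A) tails, and ribosomal depletion retains them. Of 13 tested, 12 were higher with KMT2C siRNA and 0 lower, with a median log2 fold change of 0.61 (0.63 without siRNA2, and 12 again higher). The linker histone H1-4 had 384, 436 and 325 CPM with the KMT2C siRNAs, 169 and 208 CPM with the KMT2D siRNAs and 443 CPM in the control (log2 fold change 1.01, SE 0.222, adjusted p = 0.390). H4C8 had 100.6, 84.4 and 85.4 CPM, against 46.1 and 51.4 CPM, and 104 CPM in the control (0.88, SE 0.21, adjusted p = 0.415). In all 12 the control was nearer the KMT2C libraries. Histone copies are near-identical and may share reads.

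Members of the G1/S and replication list leaned the same way, with 11 of 24 higher and 0 lower and a median of 0.41 (0.33 without siRNA2). CDC45, a subunit of the replicative helicase, had 40.7, 42.4 and 46.5 CPM with the KMT2C siRNAs, 22.5 and 24.2 CPM with the KMT2D siRNAs and 49.5 CPM in the control (log2 fold change 0.88, SE 0.207, adjusted p = 0.415). The polymerase subunit POLA1 was at 1.21 (SE 0.286, adjusted p = 0.415). Cyclin D1, CCND1, was uneven within KMT2D siRNA, at 613, 482 and 588 CPM with the KMT2C siRNAs and 140 and 442 CPM with KMT2D siRNA1 and siRNA2. The control was nearer the KMT2C libraries for 9 of the 11. Of the DNA damage and repair genes, 8 of 22 were higher and 1 lower (median 0.21), led by FANCD2 at 0.75 and CHEK2 at 1.11, and the control was nearer the KMT2C libraries for 8 of these 9. Genes of G2/M and mitosis had 4 of 24 higher and 0 lower (median 0.21), a share close to that of all genes. Without siRNA2 this became 13 of 24, against 20.2% of all genes in that comparison. TOP2A had 1594, 776 and 1370.4 CPM with the KMT2C siRNAs, 654 and 552 CPM with the KMT2D siRNAs and 1699 CPM in the control, so siRNA2 was the lowest of its group.

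CDK inhibitors and p53 targets were mixed, with 2 of 21 higher and 6 lower (median -0.15). CDKN1A, the inhibitor p21, was among the higher at 17.2, 13.2 and 17.1 CPM with the KMT2C siRNAs, against 10.3 and 6.83 CPM with the KMT2D siRNAs and 9.77 CPM in the control (log2 fold change 0.89). The repair gene XPC was lower at -0.64. Ribosome biogenesis and MYC targets had 0 of 22 higher and 6 lower (median -0.15), with the control nearer the KMT2D libraries for 5 of the 6. NOLC1 was at -0.44 with overlapping libraries, and nucleophosmin, NPM1, at -0.36 without overlap.

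**Figure D5:**
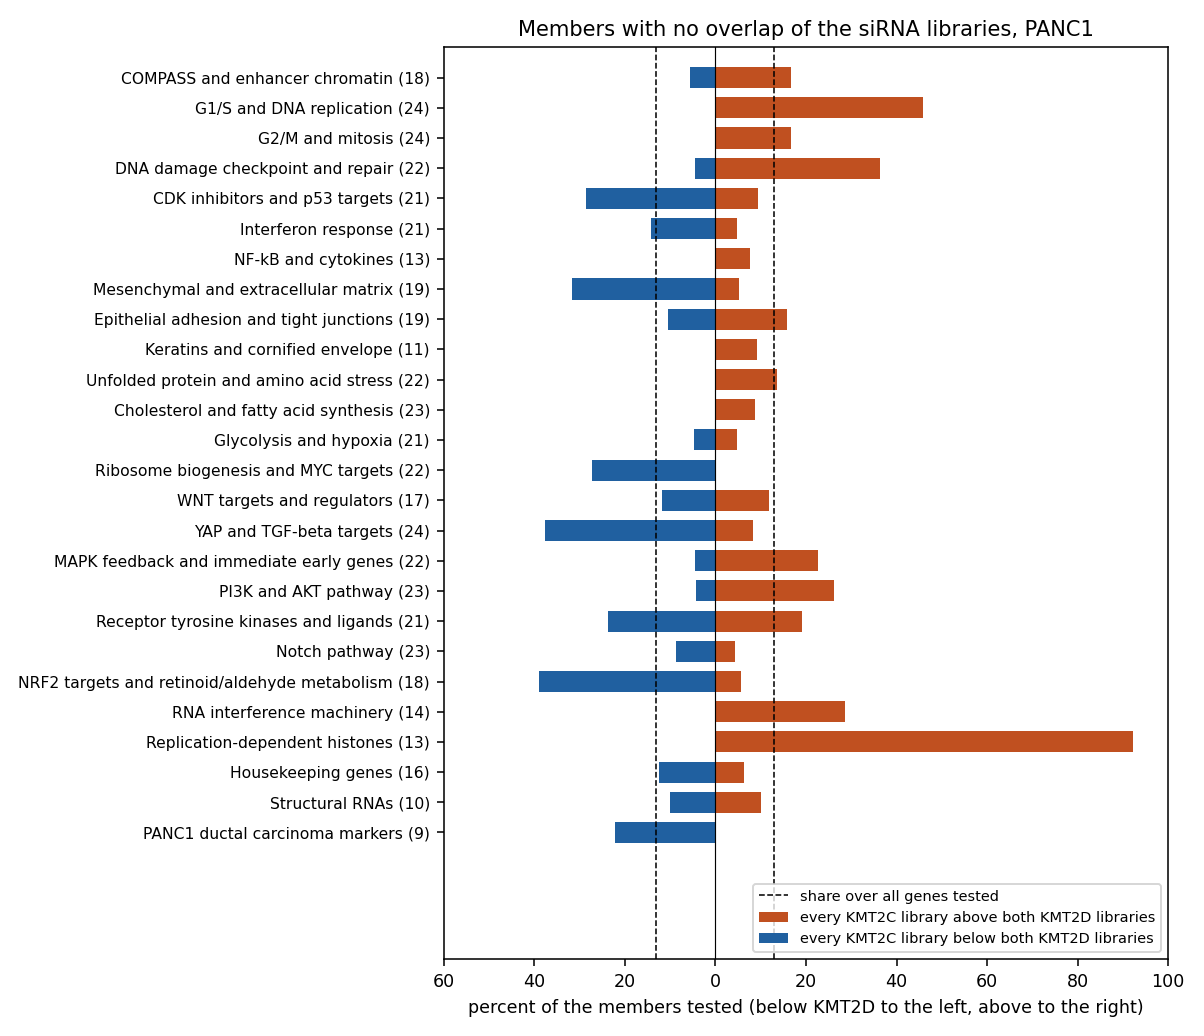
Percent of tested members (number in brackets) of each gene list whose 3 KMT2C siRNA libraries all lay above (orange, right) or below (blue, left) both KMT2D siRNA libraries in PANC1, for lists with at least 9 members tested. Dashed lines give the shares over all genes, 12.9% and 13.1%, and the histone list has 12 of 13 above.

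Targets of YAP and TGF-beta had 9 of 24 members lower and 2 higher (median -0.15). All 3 ID genes tested were among the lower, with ID1 at 62.4, 29.2 and 52.1 CPM with the KMT2C siRNAs, 132 and 97.8 CPM with the KMT2D siRNAs and 99.6 CPM in the control (log2 fold change -1.27, SE 0.323, adjusted p = 0.417). The ligand TGFB2 had 41.8, 23.2 and 61.1 CPM, against 73.4 and 197 CPM, and 90.4 CPM in the control (-1.69, SE 0.471, adjusted p = 0.441), and its antisense transcript TGFB2-AS1 was also lower at -1.44. For ID1 and TGFB2 the control was thus on the KMT2D side, whereas for ID3 it was within the KMT2C libraries. Mesenchymal and matrix genes had 6 of 19 lower and 1 higher (median -0.39, and -0.23 without siRNA2). COL6A1 had 5.51, 5.26 and 7.86 CPM with the KMT2C siRNAs, 15.3 and 10.6 CPM with the KMT2D siRNAs and 6.08 CPM in the control, and the protease MMP14 was at -0.59. The control was nearer the KMT2C libraries for all 7 of these. The higher member was the receptor kinase AXL.

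NRF2 targets and retinoid or aldehyde metabolism had 7 of 18 lower and 1 higher (median -0.37, and -0.23 without siRNA2). NQO1, a quinone reductase induced by NRF2, had 309, 185 and 350 CPM with the KMT2C siRNAs, 464 and 480 CPM with the KMT2D siRNAs and 521 CPM in the control (log2 fold change -0.75). The retinoic acid receptor RARG was the higher member at 0.77. Here the control was nearer the KMT2C libraries for only 1 of the 8, the opposite of the histones.

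Signalling lists were mixed. The PI3K and AKT list had 6 of 23 higher and 1 lower (median 0.08), led by PIK3CB and by MTOR at 0.76. MAPK feedback and immediate early genes had 5 of 22 higher and 1 lower (median 0.07). The phosphatase DUSP5 had 76.5, 92.1 and 62.2 CPM with the KMT2C siRNAs, 27.3 and 38.2 CPM with the KMT2D siRNAs and 52.4 CPM in the control (log2 fold change 1.23, SE 0.265, adjusted p = 0.390). The transcription factor ETV4 was at 1.46. FOS was at -2.02 with overlapping libraries, a value that rested on 34.4 CPM in KMT2D siRNA2, against 3.19 CPM in KMT2D siRNA1. Receptor tyrosine kinases and ligands were split, with 4 of 21 higher and 5 lower (median -0.04, and -0.24 without siRNA2), such as HBEGF at 0.68 and FGFR2 at -0.87. WNT genes had 2 of 17 higher and 2 lower (median 0.06, and -0.07 without siRNA2), with WNT7B at 1.13 and NKD2 at -0.99. Notch genes had 1 of 23 higher and 2 lower (median -0.13, and -0.01 without siRNA2), with MFNG at 1.16 and MAML3 at -0.55.

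Epithelial adhesion genes had 3 of 19 higher and 2 lower (median -0.01) and went apart at the gene level. The claudin CLDN4 had 38.6, 35.6 and 26.8 CPM with the KMT2C siRNAs, 14.7 and 13.7 CPM with the KMT2D siRNAs and 24.4 CPM in the control (log2 fold change 1.24, SE 0.248, adjusted p = 0.390). E-cadherin, CDH1, had 4.55, 9.93 and 9.58 CPM, against 17.9 and 15.8 CPM, and 16.7 CPM in the control (-1.08, adjusted p = 0.507). CDH1 and MUC1 were the 2 of 9 ductal markers without overlap, both lower. Keratins and cornified envelope genes had 1 of 11 higher and 0 lower (median 0.08, and 0.17 without siRNA2). That gene, KRT80, was at 1.24, and the envelope gene EVPL at -0.80. Only 5 of 22 classical pancreatic tumour genes were tested, with 1 higher and 1 lower, and the disulfide isomerase AGR2 at -0.79. AGR2 was called lower in the other lines (-1.51, adjusted p = 0.0031).

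The remaining lists were near or below the background in both directions, apart from RNA interference. That machinery had 4 of 14 higher and 0 lower (median 0.22, and 0.14 without siRNA2), with AGO2 at 0.65 and DICER1 at 0.59. COMPASS and enhancer chromatin genes had 3 of 18 higher and 1 lower (median 0.08, and -0.02 without siRNA2), with HCFC1 at 0.35 and the demethylase KDM1A at -0.30. Interferon response genes had 1 of 21 higher and 3 lower (median -0.30, and -0.09 without siRNA2), with IFIT1 at -0.70 and IFIT2 at -0.94. NF-kB and cytokine genes had 1 of 13 higher, LIF at 0.77, and 0 lower (median -0.13, and 0.02 without siRNA2), and TNFAIP2 was at -0.39. Unfolded protein genes had 3 of 22 higher and 0 lower (median 0.11, and 0.02 without siRNA2), with HERPUD1 at -0.63 and PSAT1 at 0.32. Lipid synthesis genes had 2 of 23 higher and 0 lower (median 0.00, and 0.12 without siRNA2), FADS1 at 0.44 and SREBF2 at 0.54. Glycolysis and hypoxia genes had 1 of 21 in each direction (median 0.06), with ENO2 at 0.64, ENO1 at -0.28 and VEGFA at 0.38. Housekeeping genes had 1 of 16 higher and 2 lower (median -0.05), with GUSB at 0.37. Structural RNAs had 1 of 10 in each direction (median 0.08), the telomerase RNA TERC at -0.32 and NEAT1 at 0.31. MALAT1 varied most among these between libraries, at 6993, 2754 and 4831 CPM with the KMT2C siRNAs, 1895 and 8032 CPM with the KMT2D siRNAs and 2854 CPM in the control.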

How the data were processed

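Each library has 1 deposited table of raw counts for Ensembl gene identifiers, which the authors made with TopHat2 and HTSeq on the hg19 build, per the submitters' processing notes, which also name FastQC and edgeR and give no versions. For the annotation release, the HTSeq mode and strandedness, nothing was stated in the labels, so overlapping, antisense and near-identical genes may share reads. The 5 entries that name no gene held 32.98% to 38.91% of read pairs in PANC1 and were left out. Symbols and biotypes came by identifier from the reference tables and GENCODE v29 (52526 of 63677 identifiers, 82.5%), an annotation of another build, so no coordinates are given. Libraries of a target differed beyond sampling noise (chi-square per gene 26.9 to 116) and were kept separate.

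Genes were tested with edgeR 4.0.16 in R 4.3.3 (quasi-likelihood F test, robust, TMM, filter by expression with a minimum count of 10 and total of 15, Benjamini-Hochberg, called at an adjusted p under 0.05). The PANC1 fit had 5 libraries, 3 residual degrees of freedom and a biological coefficient of variation of 0.25. DESeq2 1.42.0 and limma 3.58.1 were alternatives. SE was derived as the absolute log2 fold change divided by the root of F. The difference between lines used 9 groups of line by target. The quasi-likelihood test was run on simulated counts of 3 against 2 libraries. The other fits and the counts of positions were not tested in this way.

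The comparison, the 31 gene lists (624 of 639 entries matched) and the tests were chosen with earlier results of these data known. The naming rule asked for an adjusted p under 0.05, at least 2 CPM, a protein-coding gene and libraries without overlap, and 0 genes passed. Genes were then named by the smallest unadjusted p, and list members by the 2 smallest p, with others added after their values were seen. limma-voom, counts of genes without overlap and the separate fit of COLO357 and SUIT2 were also added after the data were seen.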

Additional observations from a re-analysis of the deposited data

Results flagged for a closer look

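Read pairs in no annotated feature, which enter no test, made up 15.63% of the KMT2C siRNA2 library of PANC1, above 10.28% and 8.90% in KMT2C siRNA1 and siRNA3, 11.88% and 8.65% in the KMT2D siRNA libraries and 7.49% in the control. It was also the library with the fewest gene counts, 17974599. Its part in the values of that library was not tested.

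For 4 named genes the PANC1 libraries and the libraries of another line separated in opposite directions. All 4 were among the genes named for a small p of the difference between lines, and that choice favours such genes. The share of all genes that separated in opposite directions was not counted. LXN had a log2 fold change of -1.396 in PANC1, with all KMT2C libraries below both KMT2D libraries. In COLO357 all were above, at 9.42, 5.17 and 5.10 CPM against 4.99 and 4.88 CPM. There the LXN values of KMT2C siRNA2 and siRNA3 were close to those of the KMT2D siRNAs. MREG, at 0.8417 in PANC1, was lower in COLO357, at 15.7, 14.1 and 14.8 CPM with KMT2C siRNA against 23.0 and 18.4 CPM with KMT2D siRNA. MYRF, at -0.3256 in PANC1, was higher in COLO357, at 6.39, 7.84 and 8.77 CPM against 3.50 and 5.01 CPM, and in SUIT2, at 20.6, 31.0 and 19.4 CPM against 9.77 and 9.64 CPM. CFD, at -1.291 in PANC1, was higher in SUIT2, at 3.88, 4.62 and 5.76 CPM with KMT2C siRNA against 3.37 and 2.66 CPM with KMT2D siRNA. The difference of PANC1 from either line alone was not tested. The test against the mean of both lines called 0 genes by edgeR's quasi-likelihood test, with 593 at an unadjusted p under 0.05.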

How the results depend on the processing

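The 0 calls in PANC1 stayed 0 with DESeq2's size factors, in the 18-library fit and with limma-voom, but became 251 without the filter on low counts and 122 with DESeq2. Leaving out 1 library gave 0 to 16 calls. All 16 came without KMT2D siRNA1, where the lone KMT2D siRNA2 library is assumed to vary like the KMT2C libraries, and were led by CALM2, PDIA6 and EI24. Without KMT2C siRNA2, the 0 calls became 249 without the filter, 63 with DESeq2 and 0 to 1138 when 1 more library was left out, with 1138 and 755 without KMT2D siRNA1 and siRNA2. For the difference between lines, 14 genes were called without the filter and 0 with it. Without the filter KMT2C passed at -1.311 (adjusted p = 0.000303) and KMT2D at 1.369 (adjusted p = 0.000653). The cause was not tested. No result reversed under any alternative. A number shared by KMT2C and KMT2D siRNAs names different siRNAs and does not pair libraries (correlation of deviations -0.0159 and 0.0134), and the fit with it as a block called 0 genes, with 922 at an unadjusted p under 0.05, against 1275 without it. The PANC1 fit rests on 3 residual degrees of freedom and 1 library for each siRNA. Some named genes were under 2 CPM in KMT2C libraries, where few reads limit the precision. Among the genes named for the smallest p in PANC1 these were NKAIN4, ID2, TCF4 and EFEMP1. Others named elsewhere included THBD, TENM3, CFD, MYRF, PRAF2, PCDH18 and TGFB2-AS1.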
